A study of Mus musculus with 8 samples.

Results

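The transition proteins and protamines of the mouse testis were described here through the mRNAs of 4 genes, Tnp1, Tnp2, Prm1 and Prm2. All transcripts whose symbol in the table of poly(A) tails was prm1, prm2, tnp1 or tnp2, without regard to case, were taken, and the same transcripts were taken from the table of read counts. This gave 5 transcripts of 4 genes, of 2783 transcripts in all, and 30063 of 621202 reads. The rule used symbols and no measured value, and the genes were picked with earlier results of these data known. Tnp1, Tnp2 and Prm2 had 1 transcript each, and Prm1 had 2, called Prm1 (the transcript of most reads) and Prm1-minor below. All 5 had passed the authors' filter, for which both mice of some group had to reach 10 reads. The leading transcripts of the 4 genes reached it in every group, and Prm1-minor in every group but the busulfan-treated wild-type testes.

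Whole testes of adult mice were the source of the poly(A) RNA, which was sequenced directly on Nanopore chips, so that 1 read stands for 1 RNA molecule and the length of its poly(A) tail, in nucleotides (nt), is estimated from the pore's current. The mice were Tent5c wt/wt (wt) or Tent5c dcat/dcat (dcat), and received vehicle or a single injection of busulfan at 20 mg/kg, with testes taken 4 weeks later. The TENT5C protein adds adenosines to mRNA tails in the cytoplasm, and dcat is an allele without this catalytic activity that all cells of these mice carry, so germ cells and somatic cells are mutant alike. Busulfan alkylates DNA and depletes the proliferating germ cells that renew the later stages. Each of the 4 groups (wt vehicle, wt busulfan, dcat vehicle, dcat busulfan) had 2 mice, called replicates 1 and 2 after the sequencing run that a mouse of each group shared, which made 8 libraries with 1 mouse in each.

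The 8 libraries held 29574 to 129074 reads, with a median of 69095. Marker genes fitted the labelled tissue and treatment: the 8 Leydig cell genes read (of 10 listed) took 3711 to 6830 CPM (reads scaled to a common library total) in vehicle and 24126 to 49235 CPM in busulfan libraries, and the 10 Sertoli cell genes read (of 14) took 3703 to 6120 and 23619 to 36592 CPM. Mitochondrial transcripts took 4.38% to 6.08% of reads in vehicle and 14.0% to 16.2% in busulfan libraries. The Tent5c transcript was read in all 8 libraries, from 18 to 115 times, and since dcat leaves the transcript in place its counts do not check the genotype labels.

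In spermatids, histones are first replaced by the transition proteins and then by the protamines, which pack the DNA of the sperm head. Transcription stops while the nucleus condenses, so the mRNAs for these proteins are made early, in round spermatids, held untranslated in ribonucleoprotein particles, and translated days later in elongating spermatids. The stored mRNAs are known for long poly(A) tails, and their tails are shortened as they are translated. The study counted tails in windows of 30 to 120 nt and 120 to 210 nt, called short and long tails here. Long tails do not mark untranslated mRNA as such, since translation of these mRNAs begins before their tails shorten. Tail length was the measurement, and no ribosome association was measured in these libraries.

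The 3′ ends of the transcripts are shown because each measured tail is joined to their last base. The annotation (GENCODE vM21, mouse genome GRCm38) places Tnp1 on the minus strand of chromosome 1 and the other 3 genes close together on the minus strand of chromosome 16. Tnp1 (ENSMUST00000027374) spans chr1:73015074-73015909 and is 437 nt long, of which 226 nt are 3′ UTR. Tnp2 (ENSMUST00000051297) spans chr16:10787936-10788660, with 554 nt and a 3′ UTR of 144 nt. Prm2 (ENSMUST00000037996) spans chr16:10791380-10792105, with 621 nt and a 3′ UTR of 193 nt. Prm1 (ENSMUST00000023144) spans chr16:10796326-10796886, with 469 nt and a 3′ UTR of 161 nt. Prm1-minor (ENSMUST00000230568, chr16:10796326-10805839, 460 nt) starts upstream in an exon of its own and has the same 3′ UTR and the same last base as Prm1, so that a read of the shared part could be given to either by the aligner. Each of the 4 leading transcripts has 2 exons, and Prm1-minor has 3. The last 30 bases of each gene's transcripts follow, 5′ to 3′, with the polyadenylation signal in capitals, all in the 3′ UTR of the last exon.
Tnp1, chr1:73015074-73015103, minus strand: ttgaaaacaAATAAAattgtgaaaaacaaa
Tnp2, chr16:10787936-10787965, minus strand: catggATTAAAgcttgtaccctggaagact
Prm1 and Prm1-minor, chr16:10796326-10796355, minus strand: cctgtcAATAAAtgttgaaaactcatccca
Prm2, chr16:10791380-10791409, minus strand: gccacctgccaAATAAAgcttgacacgaga
The signal was AATAAA in Tnp1, Prm1 and Prm2 and ATTAAA in Tnp2. It was followed by 15 bases in Tnp1, 19 in Tnp2, 18 in Prm1 and 13 in Prm2 before the tail.

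The promoters were searched because the 4 genes are transcribed together in round spermatids, where the activator CREM binds cyclic AMP response elements. In the 250 bases before each gene's start in RefSeq (GRCm38.p6), where all 4 genes were found, the letters TGACNTCA were looked for on both strands. They occurred once before Prm1, 64 bases from the start, and once before Tnp1, 94 bases from the start, where they lie on the opposite strand and read TGATGTCA. The GENCODE start of Prm1 given above lies upstream of the RefSeq start, so that all but 1 base of its motif is inside the GENCODE transcript. The Prm2 and Tnp2 windows did not hold these letters, and 7.49% of 32851 such windows of all genes did. The letters TATAA, searched on both strands without overlap with the first motif, occurred 30 to 33 bases before the start in Prm1, Prm2 and Tnp2 and not before Tnp1, with 22.8% of all windows holding them. The motif is in capitals in the sequences that follow, on the strand of the gene.
Prm1, chr16:10796869-10796898, minus strand: ctggtcctcttTGACTTCAtaattcctagg
Tnp1, chr1:73015975-73016004, minus strand: gcaaaggttagTGATGTCAcaagagagctg

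How much of each mRNA was left 4 weeks after busulfan was asked first. In wt testes nearly all reads of the 4 genes were gone, and in dcat testes a larger part was left. Together the 5 transcripts took 8.46% and 9.69% of reads in the wt vehicle libraries (replicates 1 and 2) and 7.88% and 9.19% in the dcat vehicle libraries. They took 0.350% and 0.384% in the wt busulfan libraries and 1.55% and 3.06% in the dcat busulfan libraries. No busulfan library overlapped a vehicle library, and both dcat busulfan libraries were above both wt busulfan libraries. As a share of the vehicle library of the same replicate, 4.13% and 3.96% was left in wt and 19.7% and 33.3% in dcat testes. In whole testes, fewer cells of a type and less RNA per cell cannot be told apart. These values are shares of a library, in which the Leydig and Sertoli genes took more of the reads after busulfan. The decreases are thus relative to the other RNA, and no absolute loss was measured.

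**Figure D1:**
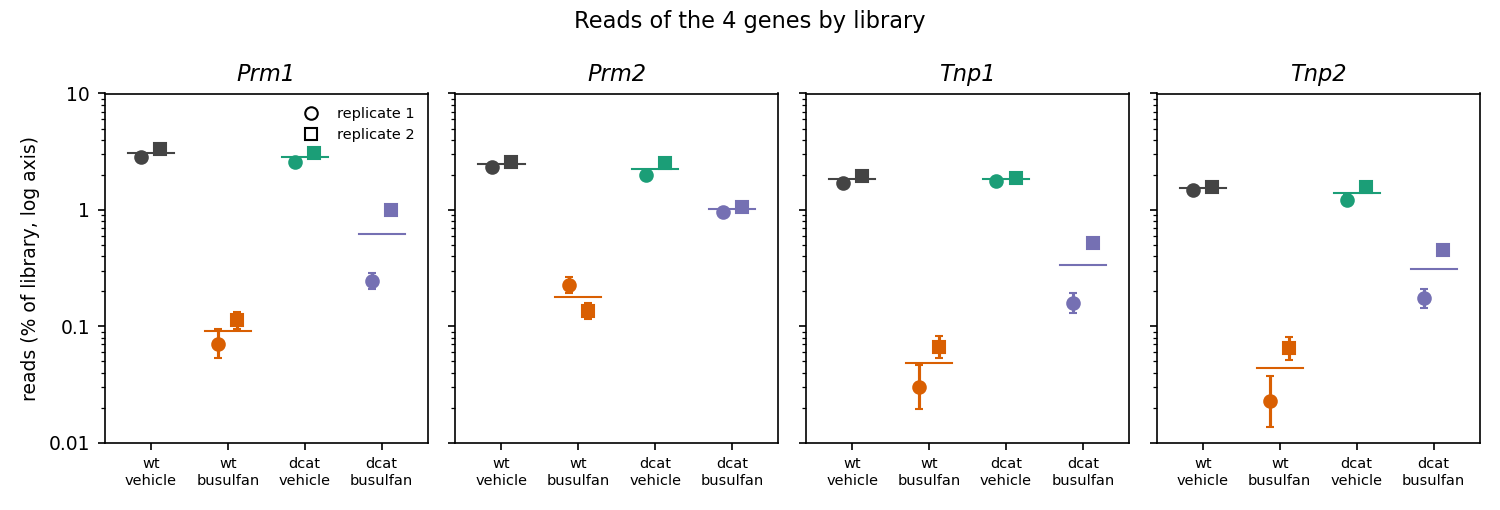
Share of a library's reads (percent, log axis) taken by Tnp1, Tnp2, Prm1 and Prm2 in each of the 8 libraries, with 1 point per mouse, a Wilson 95% interval (counting error only) and a line at the group mean. Vehicle libraries of both genotypes lie together between 1.22% and 3.35%, wt busulfan libraries lie lowest at 0.0227% to 0.226%, and dcat busulfan libraries lie in between.

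Tnp1, the more abundant transition protein in sperm chromatin remodelling, took 1.72% and 1.96% of reads in wt vehicle and 0.0303% and 0.0667% in wt busulfan testes, which were 20 and 77 reads. The Wilson 95% interval of the smaller share was 0.0196% to 0.0468%. In dcat testes it took 1.77% and 1.88% after vehicle and 0.158% and 0.520% after busulfan. Both genotypes lost the greater part of Tnp1, wt testes more than dcat testes, with no overlap between any busulfan and vehicle library. By edgeR's quasi-likelihood test, the log2 fold change of busulfan over vehicle was -5.20 (SE 0.493, adjusted p = 5.29e-08) in wt and -2.38 (SE 0.425, adjusted p = 0.000149) in dcat testes.

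Tnp2, which acts with Tnp1 in condensing the spermatid nucleus, took 1.49% and 1.58% of reads in wt and 1.22% and 1.57% in dcat vehicle libraries. After busulfan its share was 0.0227% and 0.0650% in wt testes, which were 15 and 75 reads, and 0.174% and 0.450% in dcat testes, which were 107 and 435 reads. Tnp2 followed Tnp1 closely, with the fewest reads again in wt busulfan replicate 1. The log2 fold change was -5.06 (SE 0.487, edgeR adjusted p = 5.29e-08) in wt and -2.12 (SE 0.418, edgeR adjusted p = 0.000308) in dcat testes.

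Prm1, the protamine that is made in its final form, took 2.87% and 3.35% of reads in wt vehicle and 0.0712% and 0.113% in wt busulfan testes. The dcat shares were 2.59% and 3.07% after vehicle and 0.244% and 1.00% after busulfan. The dcat busulfan libraries differed from each other about as much as Tnp1 did, with replicate 1 the lower, and neither overlapped the wt busulfan libraries. The log2 fold change was -5.08 (SE 0.498, edgeR adjusted p = 5.44e-08) in wt and -2.13 (SE 0.432, edgeR adjusted p = 0.000378) in dcat testes. Prm1-minor was a small part of the Prm1 reads, from 0 of 47 in wt busulfan replicate 1 to 10.5% in dcat vehicle replicate 1. Vehicle libraries held 28 and 141 (wt) and 90 and 169 (dcat) of its reads, and busulfan libraries 0 and 6 (wt) and 10 and 26 (dcat), where 0 reads allow up to 45.4 CPM in wt busulfan replicate 1. Its fitted log2 fold changes were -5.27 (SE 0.715, edgeR adjusted p = 1.57e-06) in wt and -3.19 (SE 0.556, edgeR adjusted p = 0.000122) in dcat testes, and both are uncertain because the reads are shared with Prm1.

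Prm2, the protamine that is made as a longer precursor and then cut, had the smallest decrease of the 4 genes. In wt testes it took 2.33% and 2.60% of reads after vehicle and 0.226% and 0.134% after busulfan. The dcat shares were 1.99% and 2.54% after vehicle and 0.956% and 1.06% after busulfan. Its dcat busulfan libraries lay close together, unlike those of Tnp1, Tnp2 and Prm1. The log2 fold change was -3.87 (SE 0.329, edgeR adjusted p = 1.76e-08) in wt and -1.15 (SE 0.295, edgeR adjusted p = 0.00221) in dcat testes. Of the vehicle share of the same replicate, 9.69% and 5.16% of Prm2 was left in wt and 48.0% and 41.8% in dcat testes, against 2.48% and 3.36%, and 9.43% and 32.7%, of Prm1.

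All 5 transcripts thus fell after busulfan in both genotypes by the edgeR test. In wt testes 1067 of 2783 transcripts fell (38.3%), and in dcat testes 875 (31.4%), so that the direction alone does not set them apart. From the largest decrease, Tnp1 ranked 157, Prm1 180, Tnp2 187 and Prm2 467 among the 2783 transcripts in wt testes. Over all transcripts the median was 0.09 (wt) and 0.14 (dcat) with TMM scaling and -0.03 (wt) and -0.08 (dcat) with RLE scaling. The decreases stayed past the threshold without any 1 library and under all other settings tried. Within replicate 1 and replicate 2, log2 differences of CPM in wt testes were -5.94 and -4.78 for Tnp1, -6.13 and -4.50 for Tnp2, -5.49 and -4.80 for Prm1, and -3.54 and -4.19 for Prm2. In dcat testes they were -3.47 and -1.82 for Tnp1, -2.80 and -1.77 for Tnp2, -3.39 and -1.59 for Prm1, and -1.05 and -1.23 for Prm2. All 4 genes were lower after busulfan in each of the 4 pairs of mice.

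The balance of the 4 mRNAs within a library shifted toward Prm2 after busulfan, most in replicate 1 of both genotypes. Prm2 held 25.3% to 27.7% of the reads of the 4 genes in the vehicle libraries. After busulfan it held 64.5% and 35.0% (wt) and 61.8% and 34.7% (dcat). The ratio of Prm1 to Prm2 reads was 1.21 to 1.3 in the 4 vehicle libraries, and after busulfan it was 0.315 and 0.839 (wt) and 0.255 and 0.943 (dcat). The 4 busulfan libraries were all below the 4 vehicle libraries, and the replicate 1 libraries of both genotypes were the lowest. Within a genotype, with 2 libraries a group, the smallest exact two-sided p is 0.333. No test of this ratio was run, within a genotype or over both. Tnp1 to Tnp2 showed no such order, at 1.15 to 1.45 in vehicle and 0.907 to 1.33 in busulfan libraries. The sum of the transition protein reads over the sum of the Prm1 and Prm2 reads was 0.595 to 0.654 in vehicle libraries. After busulfan this ratio was 0.179 and 0.533 (wt) and 0.276 and 0.470 (dcat). It thus had the order of Prm1 to Prm2, below the vehicle libraries and lowest in replicate 1 of both genotypes.

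Whether the genotype changed these mRNAs was asked within each treatment. After vehicle, the dcat over wt log2 fold changes were -0.14 for Prm1 (SE 0.413), -0.12 for Prm2 (SE 0.290), -0.01 for Tnp1 (SE 0.401) and -0.13 for Tnp2 (SE 0.398). None was called by edgeR, and neither was any of the 2783 transcripts (0%), with 65 at an unadjusted p under 0.05 and 0 by DESeq2. After busulfan, all 5 transcripts were higher in dcat than in wt testes by edgeR, against 150 transcripts of 2783 higher (5.39%). The log2 fold change was 2.81 for Tnp1 (SE 0.456, adjusted p = 0.000663), 2.80 for Tnp2 (SE 0.454, adjusted p = 0.000663), 2.80 for Prm1 (SE 0.457, adjusted p = 0.000663), 2.60 for Prm2 (SE 0.314, adjusted p = 2.47e-05) and 2.76 for Prm1-minor (SE 0.826, adjusted p = 0.0473). The within-replicate differences were 2.51 and 2.89 for Tnp1, 3.05 and 2.72 for Tnp2, 1.95 and 3.09 for Prm1, and 2.27 and 2.93 for Prm2, so that the direction was the same in both pairs of mice.

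The call on the genotype after busulfan rested on single libraries for all but Prm2. Without wt busulfan replicate 1, edgeR gave 2.41 for Prm1 (adjusted p = 0.0755), 2.28 for Tnp1 (adjusted p = 0.0730) and 2.2 for Tnp2 (adjusted p = 0.0655). Without dcat busulfan replicate 2 it gave 1.37 for Prm1 (adjusted p = 0.212) and 1.62 for Tnp1 (adjusted p = 0.0913). Prm2 stayed between 2.40 and 2.94 and past the threshold without any 1 library and under the other settings. Prm1-minor lost its call under 7 of 15 alternatives, RLE scaling among them (adjusted p = 0.0543), with 1.98 to 7.05 over all of them.

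Markers of several cell types were also compared between the genotypes after busulfan. The 6 round spermatid genes read (of 12 listed) took 30.3 and 86.6 CPM in wt busulfan and 163 and 486 CPM in dcat busulfan libraries, against 1995 to 2564 CPM after vehicle. Of the 6, 4 were higher in both dcat than in both wt libraries and 2 overlapped. Their counts were small. Acr, Acrbp, Acrv1 and Spaca1, genes of the acrosome, had 0 reads in wt and 1 or 2 in dcat busulfan replicate 1. In replicate 2 they had 1 to 4 (wt) and 2 to 10 reads (dcat). The 12 elongated spermatid genes took 5723 and 8958 CPM in wt busulfan and 6848 and 9380 CPM in dcat busulfan libraries, sums in which genes moved in opposite ways. Of the 12, 7 were higher in both dcat than in both wt libraries, 2 were lower and 3 overlapped. Oaz3, Odf1 and Smcp, singled out after their values were seen, took 5042 and 7936 CPM (wt) and 4278 and 4964 CPM (dcat) of the sum, and the other 9 genes took 681 and 1022 CPM (wt) and 2570 and 4416 CPM (dcat). The 5 spermatocyte genes read (of 12) took 303 and 442 CPM (wt) and 455 and 910 CPM (dcat), with 1 higher in both dcat libraries and 4 overlapping. The 1 spermatogonium gene read (of 8) overlapped. The Leydig list was lower in dcat busulfan (24126 to 28512 CPM) than in wt busulfan testes (43859 to 49235 CPM), and most of this sum was Insl3, a Leydig cell hormone gene, at 31521 and 36361 CPM (wt) and 15126 and 13744 CPM (dcat). The sum of the other 7 Leydig genes overlapped, at 12339 and 12874 CPM (wt) and 13386 and 10383 CPM (dcat). Of the 8 genes, Insl3 included, 3 were lower in both dcat than in both wt libraries and 5 overlapped. The Sertoli list was lower in dcat busulfan testes (23619 to 33197 against 35651 to 36592 CPM), with 3 of its 10 genes lower in both dcat libraries and 7 overlapping. The 4 peritubular genes read (of 7) took 3255 and 2989 CPM (wt) and 2586 and 2285 CPM (dcat), with 2 lower in both dcat libraries and 2 overlapping. The 3 macrophage genes read (of 9) took 954 and 1074 CPM (wt) and 878 and 703 CPM (dcat), with 2 lower and 1 overlapping. The 2 erythroid genes read (of 5) took 924 and 771 CPM in wt and 0 and 20.7 CPM in dcat busulfan libraries. They were also lower in dcat after vehicle, at 177 and 291 CPM (wt) and 135 and 15.5 CPM (dcat). The share of all transcripts whose libraries did not overlap was not counted. For a single gene, 2 libraries against 2 give an exact two-sided p of 0.333 at the least. The counts of genes above thus describe these lists only. The part of these cell types in the difference between genotypes was not tested.

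The full tail length distributions were examined next. In vehicle testes all 4 mRNAs had a single broad peak of long tails and a low shoulder of short ones, with no difference between genotypes that was larger than the spread between mice. Mean tails were 139 and 140.0 nt (wt) and 138 and 144 nt (dcat) for Tnp1, and 148 and 152 nt (wt) and 147 and 153 nt (dcat) for Tnp2. They were 139 and 144 nt (wt) and 143 and 144 nt (dcat) for Prm1, and 145 and 147 nt (wt) and 143 and 148 nt (dcat) for Prm2. Tnp2 had the longest mean tail in each of the 4 vehicle libraries. The limma test of mean tails after vehicle called 0 of 720 transcripts between genotypes (0%).

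The most frequent tail length in the long window, in 5-nt steps, was centred at 142.5 to 157.5 nt for Tnp1, 147.5 to 162.5 nt for Prm1, 152.5 to 167.5 nt for Prm2 and 162.5 to 177.5 nt for Tnp2 over the 4 vehicle libraries. Tnp2 also had the most tails over 210 nt, 8.31% to 9.29% of its reads, against 2.47% to 5.02% for the other 3. The 10th and 90th percentiles were 58.6 to 70.7 and 206 to 209 nt for Tnp2 and 76.0 to 86.4 and 190.2 to 194 nt for Prm2. The Tnp2 distribution was thus the widest of the 4 on the side of long tails. The distance between the distributions of 2 genes in a vehicle library (the Wasserstein distance, the mean shift needed to turn one into the other) was 3.02 to 6.74 nt for Prm1 and Prm2 and 9.38 to 12.6 nt for Prm1 and Tnp2.

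**Figure D2:**
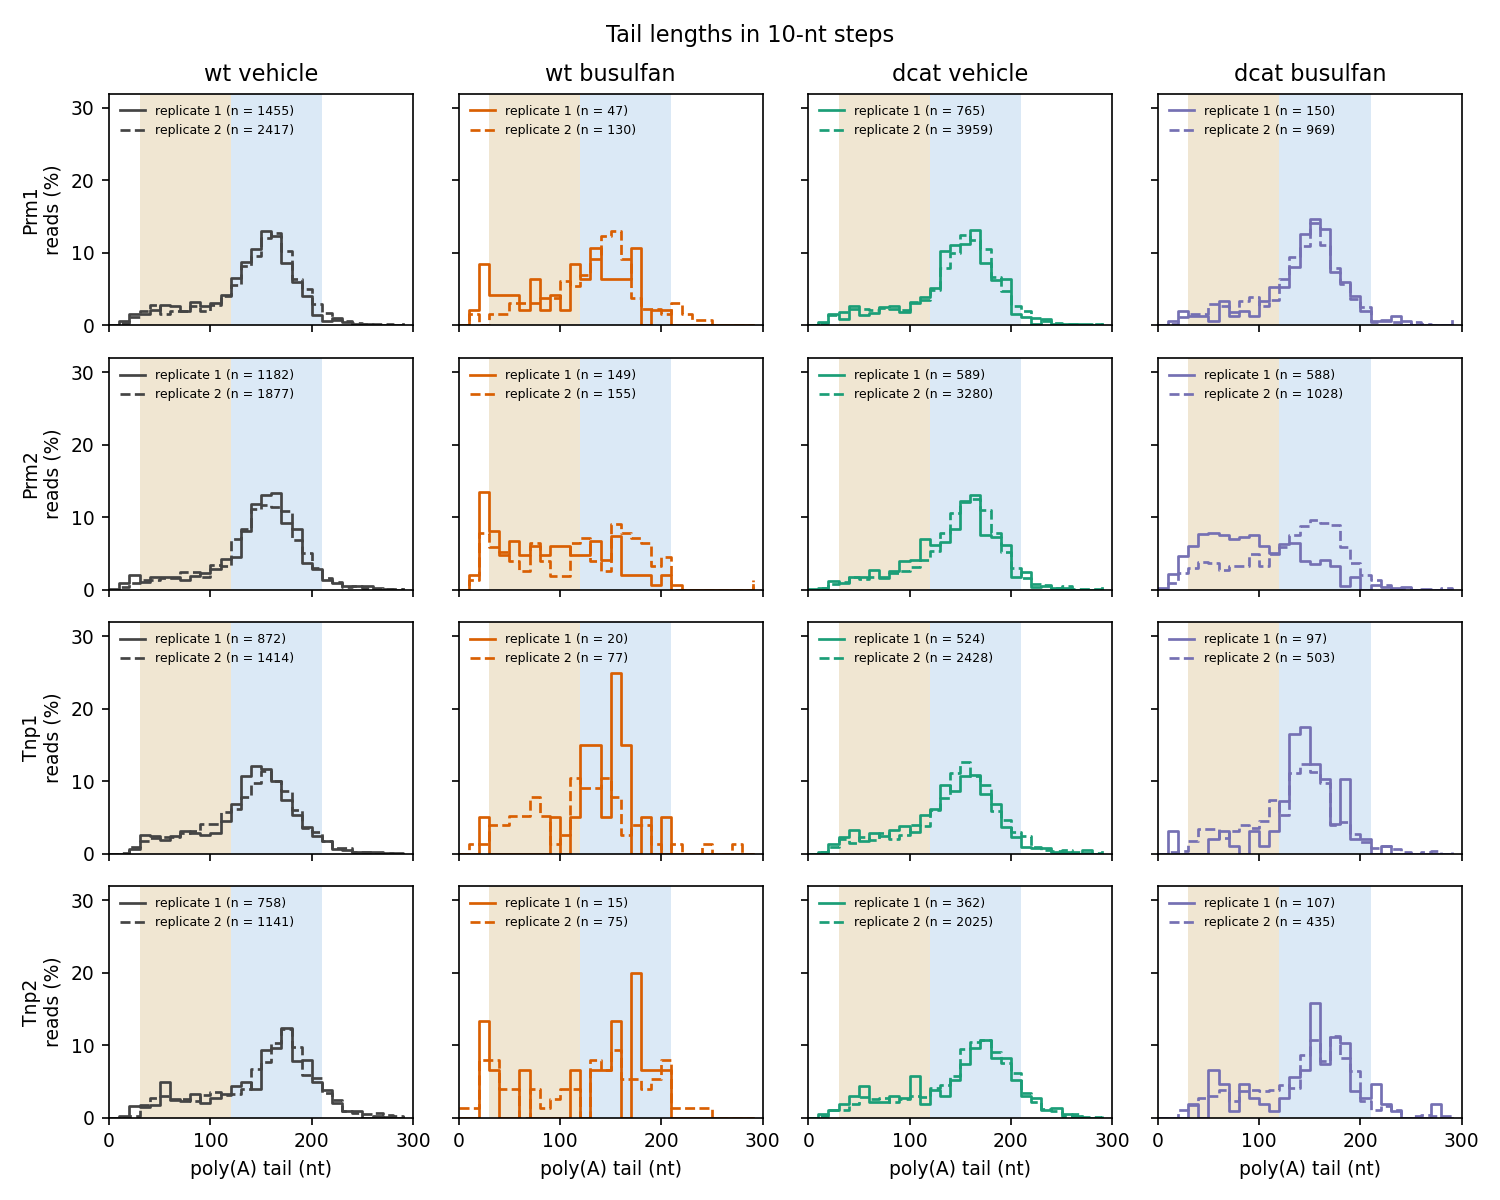
Poly(A) tail lengths of Tnp1, Tnp2, Prm1 and Prm2 in each library, as the percent of a gene's reads per 10-nt step (tails over 300 nt are counted in the last step), with the short (30 to 120 nt) and long (120 to 210 nt) windows shaded. In vehicle testes each gene peaks in the long window, while in busulfan testes Prm2 in replicate 1 of both genotypes has most of its reads under 120 nt.

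After busulfan the tails of the 4 genes differed in what was called. In wt testes the remaining molecules of Prm1, Prm2 and Tnp2 had shorter tails by limma, and in dcat testes Prm2 did. Mean Prm2 tails after busulfan were 93.1 and 118 nt (wt) and 94.7 and 130.0 nt (dcat), all 4 below the vehicle libraries. The difference was -40.6 nt in wt (SE 8.87, limma adjusted p = 0.00499) and -33.2 nt in dcat testes (SE 9.93, limma adjusted p = 0.0347). The wt call of Prm2 ended when either wt vehicle library was left out (-41.5 and -39.7 nt). It also ended with each library centred on its median (limma adjusted p = 0.0739) and by the t-test of the study's methods (adjusted p = 0.207). The dcat call ended without any 1 of 5 libraries, at -15.6 nt with dcat busulfan replicate 1 left out. It also ended on median tails, without the trend and with libraries centred (limma adjusted p = 0.104, 0.0977 and 0.330). By the t-test the adjusted p was 0.388. Within replicates 1 and 2 the differences were -52.1 and -29.1 nt (wt) and -48.2 and -18.3 nt (dcat).

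Prm1 tails were called as shorter in wt testes, and the dcat difference was small. Their mean tails were 112 and 134 nt in wt busulfan libraries, from 47 and 130 reads, and 143 and 140.1 nt in dcat busulfan libraries, from 150 and 969 reads. The wt libraries lay below the vehicle range of 139 to 144 nt and the dcat libraries within it. The limma difference was -18.5 nt in wt (SE 4.98, adjusted p = 0.0131) and -1.80 nt in dcat testes (SE 5.41, adjusted p = 0.813). The wt call of Prm1 ended without wt vehicle replicate 1 (-21.1 nt) and without wt vehicle replicate 2 (-16.0 nt). It also ended without the trend (limma adjusted p = 0.143) and by the t-test (adjusted p = 0.402). The difference between genotypes after busulfan was 19.0 nt (SE 5.93, limma adjusted p = 0.301), and without wt busulfan replicate 2, with the lone wt library assumed to vary like the other groups, it was 30.1 nt (adjusted p = 3.1e-05).

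Tnp2 tails had means of 131 and 124 nt (wt) and 148 and 142 nt (dcat) after busulfan. The limma difference was -22.6 nt in wt (SE 3.68, adjusted p = 0.000777) and -4.79 nt in dcat testes (SE 3.29, adjusted p = 0.296). By the t-test the wt difference was not called (adjusted p = 0.119). The genotypes did not overlap after busulfan, and their difference was 17.9 nt (SE 5.89, limma adjusted p = 0.336, and 0.0243 on log2 lengths). Tnp1 tails had means of 140.4 and 118 nt (wt, from 20 and 77 reads) and 141 and 133 nt (dcat, from 97 and 503 reads) after busulfan. Only the replicate 2 libraries lay below the vehicle range of Tnp1, and the limma differences were -10.5 nt in wt (SE 5.65, adjusted p = 0.169) and -3.81 nt in dcat testes (SE 5.99, adjusted p = 0.643). Where a busulfan library is left out, the lone library of that group is assumed to vary like the other groups. On that assumption the wt difference without wt busulfan replicate 1 was -21.9 nt (adjusted p = 2.01e-07), and without wt busulfan replicate 2 it was 0.87 nt. Between genotypes after busulfan, Tnp1 differed by 8.09 nt (SE 7.10, limma adjusted p = 0.926) and Prm2 by 6.91 nt (SE 8.85, limma adjusted p = 0.960). That of Prm2 came to 19.3 nt (adjusted p = 0.00348) with wt busulfan replicate 2 left out and to -10.7 nt with dcat busulfan replicate 2 left out.

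Mean tails shortened for 3 of the 4 members tested in wt testes, against 187 of 527 transcripts tested (35.5%), and for 1 of 5 in dcat testes, against 133 of 441 (30.2%). Prm1-minor had too few reads for the wt test and differed by -3.40 nt in dcat testes (SE 10.5, limma adjusted p = 0.818). The median difference of all transcripts tested was -19.9 nt (wt) and -17.2 nt (dcat), so that the wt changes of Prm1 and Tnp2 were near the median and Prm2 lay below it in both genotypes. Without the 4 genes, the mean tail of all reads was 134 to 144 nt in vehicle and 111 to 115 nt in busulfan libraries. Between genotypes after busulfan, 0 of 4 members were called on the scale of nt, against 14 of 1188 transcripts (1.18%). Each library was then centred on the median over the transcripts tested. Tnp1, Tnp2 and Prm1 differed by 12.7, 0.66 and 4.70 nt in wt testes and by 19.0, 18.0 and 21.0 nt in dcat testes. In dcat testes all 3 were then called as longer (limma adjusted p = 0.0448, 0.0198 and 0.0171). Prm2 differed by -17.4 nt in wt (adjusted p = 0.0739) and by -10.5 nt in dcat testes (adjusted p = 0.330) on that scale.

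The 2 pools were then counted, as the share of a gene's reads with long tails and with short tails. In vehicle testes long tails made up 61.9% to 75.3% of the reads of each gene and short tails 18.9% to 28.3%. Prm2 had more short tails after busulfan, with short tails in 51.7% and 38.1% of its reads in the wt libraries and 61.7% and 33.0% in the dcat libraries, against 18.9% to 26.0% after vehicle. The Wilson 95% intervals of these 4 shares were 43.7% to 59.6%, 30.8% to 45.9%, 57.7% to 65.6% and 30.2% to 35.9%. All 4 lay above the vehicle range, and in both replicate 1 libraries the short pool was larger than the long pool. Long Prm2 tails made up 31.5% and 51.6% of reads (wt) and 29.8% and 61.2% (dcat) after busulfan, against 68.9% to 75.3% after vehicle.

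The shares of Prm1 moved in the wt libraries. After busulfan, short tails made up 38.3% and 31.5% of its reads (wt) and 20.0% and 23.9% (dcat), against 20.8% to 24% after vehicle. Long tails made up 51.1% and 60.8% (wt) and 73.3% and 71.8% (dcat), against 71.3% to 74.0% after vehicle. The wt busulfan libraries lay outside the vehicle range in both pools, with wide counting intervals (25.8% to 52.6% for the short share of replicate 1).

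The 2 replicates of Tnp1 went opposite ways after busulfan. Its short tails made up 10% and 45.5% of reads in wt and 13.4% and 33.4% in dcat testes, so that replicate 1 lay below and replicate 2 above the vehicle libraries in both genotypes. The Wilson interval of the lowest of these, from 20 reads, was 2.79% to 30.1%. Tnp2 had short tails in 20.0% and 32% of reads (wt) and 24.3% and 29.0% (dcat), and its interval in wt busulfan replicate 1, from 15 reads, ran from 7.05% to 45.2%. No limma difference in the shares of either gene was called, and the spread between replicates was wide for Tnp1, whose short share differed by 0.97 points in wt (SE 8.65, adjusted p = 0.943) and by -2.03 points in dcat testes (SE 9.66, adjusted p = 0.910).

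**Figure D3:**
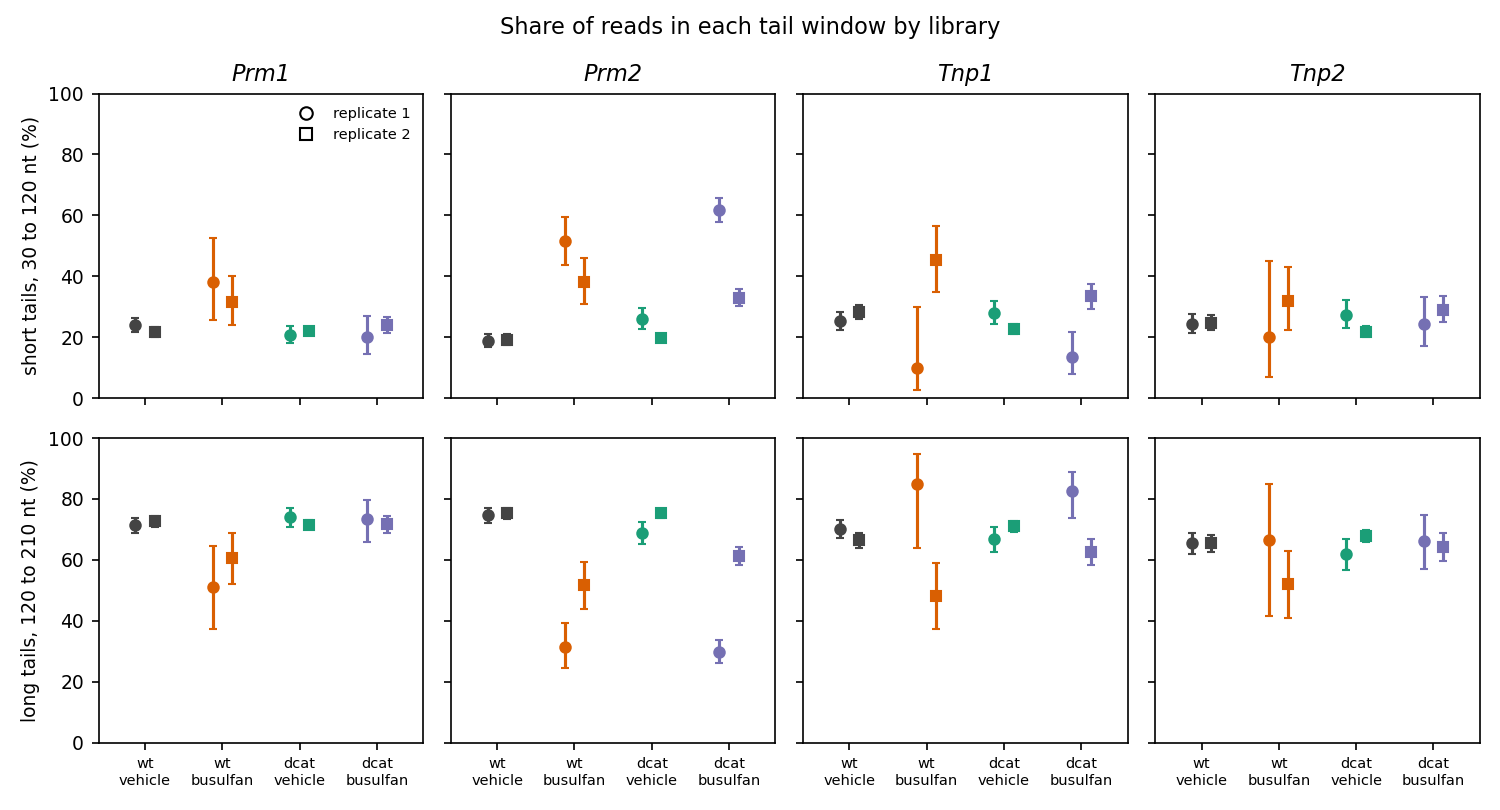
Percent of each gene's reads with short (30 to 120 nt) and long (120 to 210 nt) tails in the 8 libraries, with bars for Wilson 95% intervals (counting error only). Prm2 gains short tails in all 4 busulfan libraries (33.0% to 61.7%, against 18.9% to 26.0% after vehicle), and Prm1 does so in the wt busulfan libraries.

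By limma on these shares, the long pool of Prm1 fell by 16.1 percentage points in wt testes (SE 2.64, adjusted p = 0.00341) and the short pool rose by 12.0 points (SE 2.00, adjusted p = 0.00152). For Prm2 the long pool fell by 33.4 points (SE 8.78, adjusted p = 0.0211) and the short pool rose by 25.9 points (SE 6.81, adjusted p = 0.0162). The fall of the long share was called for 2 of the 4 members tested, against 149 of 527 transcripts (28.3%), and the rise of the short share likewise for 2 of 4, against 148 of 527 (28.1%). Tnp1 and Tnp2 were the other 2, with long shares that differed by -1.90 and -6.16 points. The median over all transcripts tested was -15.5 points for the long and 14.7 points for the short share, so that Prm1 was near the median and Prm2 beyond it. Prm2 lost the call on its long share without any 1 of the 4 wt libraries (-43.4 to -23.3 points, adjusted p = 0.0565 to 0.208) and that on its short share without either wt vehicle library or wt busulfan replicate 1 (adjusted p = 0.0895 to 0.144). Prm1 lost both on the log2 odds scale (adjusted p = 0.103 and 0.0853) and with windows of 30 to 100 and 100 to 250 nt (adjusted p = 0.0635 and 0.0698).

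In dcat testes the short pool of Prm2 rose by 24.6 points (SE 7.61, limma adjusted p = 0.0459), the 1 member called of 5 tested, against 102 of 441 transcripts (23.1%). That call ended without any 1 of 5 libraries and with a minimum of 20 reads (adjusted p = 0.0682 to 0.230), and without dcat busulfan replicate 1 the rise was 10.2 points. The long pool of Prm2 differed by -26.6 points (SE 9.04, limma adjusted p = 0.0708) and reached the threshold with the replicate block (adjusted p = 0.0205) and under 5 other alternatives, with -42.4 points without dcat busulfan replicate 2. No member was called for the long share, against 74 of 441 transcripts (16.8%). Prm1 differed by -0.22 points in its long and by 0.59 points in its short share in dcat testes.

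Between genotypes after busulfan, the short share of Prm1 was 12.9 points lower in dcat than in wt testes (SE 3.41, limma adjusted p = 0.0166). It was the 1 member called of 4, against 2 of 1188 transcripts lower (0.168%), but the call ended without any 1 of the 4 busulfan libraries, where the difference ranged from -16.3 to -9.57 points, and under 4 other alternatives. The long share of Prm1 was 16.7 points higher (SE 3.39, limma adjusted p = 0.126, and 0.0111 with a minimum of 20 reads), and 0 members were called, against 4 of 1188 transcripts (0.337%) and 2 with the replicate block. For Prm2 the differences were 3.90 points in the long and 2.48 points in the short share. The fit of the short share gave Prm2 an SE of 2.96 points, although its short shares were 51.7% and 38.1% (wt) and 61.7% and 33.0% (dcat). The p-values of that fit thus lean on the spread shared by all transcripts.

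**Figure D4:**
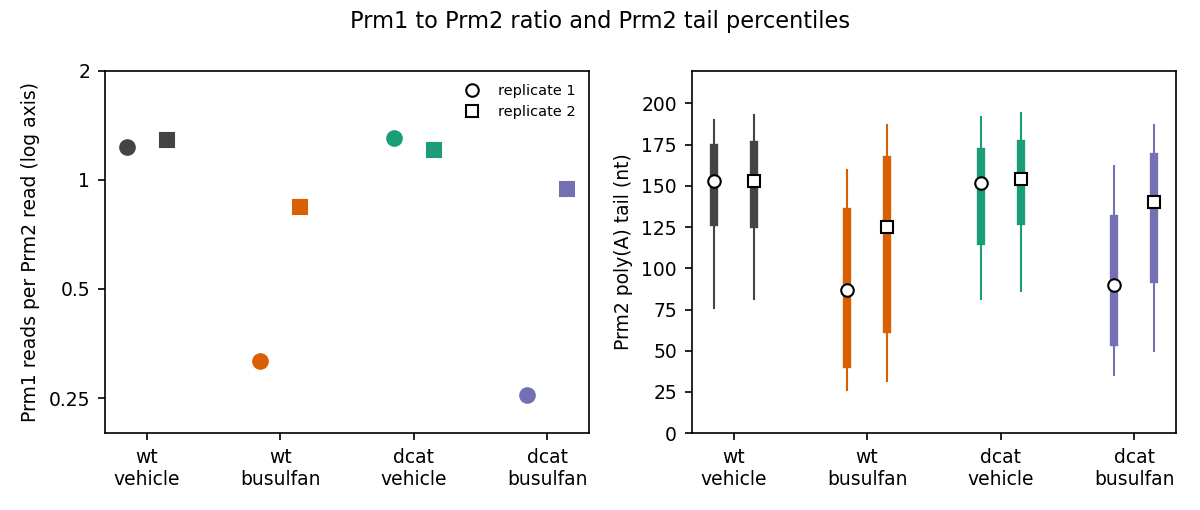
Left, Prm1 reads per Prm2 read in each library (log axis); right, Prm2 tail lengths (nt) in each library, with the median as a point, the 25th to 75th percentile as a thick line and the 10th to 90th as a thin line. The 2 replicate 1 busulfan libraries have the lowest ratios (0.315 and 0.255) and the lowest median Prm2 tails (87.1 and 89.8 nt, against 151 to 154 nt after vehicle).

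Tails under 30 nt lie outside both windows and were counted apart. They made up 0.976% to 2.79% of Prm2 reads after vehicle, and 15.4% and 9.03% (wt) and 6.97% and 3.31% (dcat) after busulfan, all 4 above the vehicle range. For Prm1 they made up 1.57% to 2.2% after vehicle, and 10.6% and 1.54% (wt) and 2.67% and 1.34% (dcat) after busulfan, so that a single library stood apart. Tnp2 had 13.3% and 10.7% of such tails in wt busulfan libraries, which were 2 of 15 and 8 of 75 reads, against 0.351% to 1.85% after vehicle and 0% and 1.15% in dcat busulfan libraries. These reads are part of its lower mean tail in wt testes and of neither share. Tails under 30 nt were not counted over the other transcripts. The mean tail of all reads without the 4 genes was also shorter after busulfan (111 to 115 nt, against 134 to 144 nt). Of the 6 distances between pairs of genes, 6 and 5 were above the range of the 4 vehicle libraries in the wt busulfan libraries and 5 and 3 in the dcat busulfan libraries (replicates 1 and 2). The distance between Prm1 and Prm2 tails was 21.1 and 20.8 nt (wt) and 48.4 and 10.4 nt (dcat) after busulfan, while that between Prm1 and Tnp2 was 11.6 and 7.98 nt in dcat busulfan libraries, against 9.38 to 12.6 nt after vehicle. Distances also grow when few reads are compared, and the wt busulfan libraries had 15 to 155 reads of each gene. Pairs of other transcripts were not counted in this way, so the counts of pairs describe these 4 genes only.

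How the reads of each pool changed was asked next. The reads of the short and the long window were counted separately, each against all such pools of all transcripts. The number of molecules in a testis was not measured. In wt testes Prm2 had 882 and 1413 long-tailed reads after vehicle and 47 and 80 after busulfan. The dcat libraries had 406 and 2470 after vehicle and 175 and 629 after busulfan. Its short-tailed reads were 223 and 359, 77 and 59, 153 and 644, and 363 and 339 in the same order. In both replicate 1 busulfan libraries more short-tailed than long-tailed Prm2 reads were left, and in both replicate 2 libraries more long-tailed ones. Scaled to the library total, the short-tailed reads of dcat replicate 1 were 5173 CPM after vehicle and 5904 CPM after busulfan, and those of dcat replicate 2 were 4989 and 3506 CPM. The log2 fold change of the long pool was -5.04 (SE 0.379) in wt and -1.91 (SE 0.326, edgeR adjusted p = 6.16e-07) in dcat testes. That of the short pool was -2.88 (SE 0.381) in wt and -0.28 (SE 0.349, edgeR adjusted p = 0.524) in dcat testes, and the latter turned to 0.30 with windows of 30 to 100 and 100 to 250 nt.

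For the other 3 genes both pools fell. In wt testes the short and long pools changed by -4.98 (SE 0.443) and -5.72 (SE 0.413) for Tnp1, by -5.02 (SE 0.462) and -5.57 (SE 0.421) for Tnp2, and by -4.77 (SE 0.419) and -5.67 (SE 0.384) for Prm1, all as log2 fold changes called by edgeR. In dcat testes they changed by -2.24 (SE 0.380) and -2.54 (SE 0.348) for Tnp1, by -2.02 (SE 0.389) and -2.26 (SE 0.353) for Tnp2, and by -2.12 (SE 0.365) and -2.25 (SE 0.325) for Prm1. For these 3 genes in dcat testes the fitted values of the 2 pools lay within 1 SE of each other. In replicate 1 the long share of Tnp1 was 14.7 points (wt) and 15.7 points (dcat) higher after busulfan, and in replicate 2 it differed by -18.5 and -8.34 points. The test of pools found no spread between transcripts beyond that of its trend, so that its p-values lean on the spread shared by all pools. With a robust estimate of the spread, chosen after seeing the data, the short pool of Tnp1 in dcat testes was not called (adjusted p = 0.232).

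**Figure D5:**
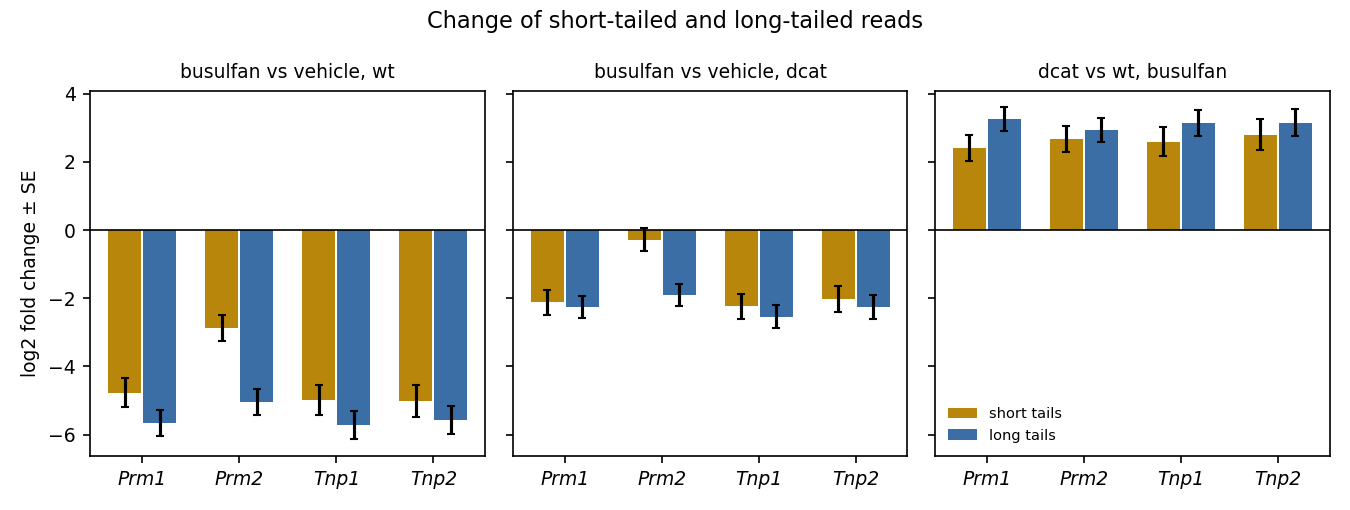
Log2 fold change of short-tailed and long-tailed reads of each gene after busulfan in wt (left) and in dcat testes (middle) and of dcat over wt after busulfan (right), with error bars of 1 SE from the edgeR fit. Every value after busulfan lies below 0, with the short-tailed pool of Prm2 in dcat testes (-0.28) nearest to 0, and every dcat over wt value lies above 0.

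All 10 pools of the 5 transcripts fell in wt testes, against 1856 of 5482 pools (33.9%), and 9 of 10 in dcat testes, against 1267 (23.1%). After busulfan, all 10 were higher in dcat than in wt testes, against 211 of 5482 higher (3.85%). The differences in the short and long pools were 2.59 (SE 0.423) and 3.15 (SE 0.380) for Tnp1, 2.80 (SE 0.449) and 3.15 (SE 0.391) for Tnp2, 2.41 (SE 0.393) and 3.26 (SE 0.350) for Prm1, and 2.68 (SE 0.378) and 2.94 (SE 0.349) for Prm2 on the log2 scale. The short pools of Prm1, Tnp1 and Tnp2 lost the call without dcat busulfan replicate 2 (0.59, 0.11 and 1.53), that of Tnp1 also without wt busulfan replicate 1 (1.79) and with the robust spread (adjusted p = 0.520), and the long pools of the 4 leading transcripts and the short pool of Prm2 kept it under every setting tried.

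Whether the effect of busulfan differed between genotypes was tested last. The interaction of genotype and busulfan was called for 4 of the 5 transcripts by edgeR, against 9 of 2783 transcripts (0.323%) in the same direction and 123 of either direction with the replicate block. It was 2.72 for Prm2 (SE 0.423, adjusted p = 0.00108), and Prm2 kept the call without any 1 library. The calls for Prm1, Tnp1 and Tnp2 ended without any 1 of 4 or 5 of the libraries, with adjusted p of 0.415, 0.339 and 0.201 without dcat busulfan replicate 2. The interaction of mean tails was 16.7 nt for Prm1 (SE 7.85, limma adjusted p = 0.628) and 17.8 nt for Tnp2 (SE 4.84, limma adjusted p = 0.180).

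Genes that act beside the 4 in the spermatid were taken from lists, each by its transcript of most reads. Of 26 genes of chromatin condensation, 14 were read, and 12 of these fell in wt and 12 in dcat testes after busulfan by edgeR, with 7 higher in dcat than in wt busulfan testes, against 38.3%, 31.4% and 5.39% of all transcripts. Their median log2 fold changes were -3.95, -1.98 and 1.69, against 0.09, 0.14 and 0.20 over all transcripts. H1f9, a linker histone of spermatids, fell by 5.19 on the log2 scale in wt (SE 0.551, adjusted p = 1.09e-07) and by 2.52 in dcat testes (SE 0.448, adjusted p = 0.000143). Hmgb4, an HMG-box protein of the testis, fell by 4.55 (SE 0.534) and by 2.22 (SE 0.438). The genes for the replacement histone H3.3, used in all cells, gave -0.27 for H3f3a (adjusted p = 0.464) and -0.32 for H3f3b (adjusted p = 0.438) in wt testes, and neither was called in dcat testes.

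Of 35 genes of translation control and tail length, 13 were read, and 10 fell in wt and 9 in dcat testes, with 1 higher in dcat than in wt busulfan testes (medians -3.09, -1.71 and 1.07). The shares over all transcripts were again 38.3%, 31.4% and 5.39%, and the last is near 1 of 13. Ybx3, which binds stored mRNAs, fell by 4.50 in wt (SE 0.577, edgeR adjusted p = 8.09e-07) and by 1.58 in dcat testes (SE 0.470, edgeR adjusted p = 0.00621), and was the 1 gene higher in dcat busulfan testes, at 2.47 (SE 0.620, edgeR adjusted p = 0.0215). Pabpc1, the poly(A) binding protein, fell by 2.41 (SE 0.394) and by 1.89 (SE 0.385), and Ybx1, another mRNA-binding protein, fell by 1.94 (SE 0.373) and by 1.22 (SE 0.361). Tent5c itself fell by 1.60 in wt testes (SE 0.405, edgeR adjusted p = 0.00117) and gave -0.58 in dcat testes (SE 0.382, edgeR adjusted p = 0.182).

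Of 30 other mRNAs known to be stored in spermatids, 28 were read, and all 28 fell in wt and 20 in dcat testes, with 13 higher in dcat than in wt busulfan testes (medians -4.15, -1.40 and 2.05), against the same 38.3%, 31.4% and 5.39%. Of these 28 genes, 11 are also on the elongated spermatid list above. Where tails could be tested, 8 of 10 were shorter after busulfan in wt and 8 of 16 in dcat testes, with median differences of -59.6 and -33.7 nt, against 35.5% and 30.2% of all transcripts tested. These mRNAs did not all behave alike. Ldhc, the lactate dehydrogenase of germ cells, fell by 4.61 on the log2 scale in wt testes (SE 0.437) with a tail difference of 3.48 nt (limma adjusted p = 0.689). Dbil5, an acyl-CoA binding protein of late spermatids, fell by 0.79 (SE 0.346) with a tail difference of -61.1 nt (limma adjusted p = 0.000122), and Smcp, a protein of the sperm mitochondrial capsule, fell by 0.81 (SE 0.339) with a tail difference of -34.9 nt (limma adjusted p = 0.00689). Odf1, of the outer dense fibres, fell by 1.19 in wt (SE 0.341) and by 1.96 in dcat testes (SE 0.360), and its tails were shorter in dcat than in wt busulfan testes (-50.1 nt, SE 10.4, limma adjusted p = 0.0248). In that comparison 10 genes of the list were tested, with Odf1 the 1 called as shorter and 2 called as longer in dcat busulfan testes. Their median difference was 31.7 nt, against 2.85 nt over all transcripts tested. Of all 1188 transcripts tested, 11 were called as shorter and 3 as longer.

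The transcripts whose reads ran most like the sum of the 4 genes over the 8 libraries, among 2773 transcripts of other genes, were Gstt4, Ccdc179, Fam229b, Txndc2 and Spata6, with Pearson correlations of log2 CPM of 0.997, 0.996, 0.996, 0.994 and 0.994. This is a description over 8 libraries that share 2 sequencing runs and fall into vehicle and busulfan sets, which set most of the correlation. Gstt4, a glutathione transferase, was at 493 and 707 CPM (wt) and 440 and 682 CPM (dcat) after vehicle, and at 0 reads in both wt libraries and 65.1 and 145 CPM (dcat) after busulfan. In tail lengths over the 8 libraries, the nearest of 130 other transcripts was Tubb4b for Prm1 (mean distance 15.4 nt), Gm5617 for Prm2 (13.7 nt), Calm3 for Tnp1 (15.2 nt) and Eif1 for Tnp2 (15.5 nt), against median distances of 30.6, 25.1, 30.2 and 33.1 nt.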

How the data were processed

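Poly(A) RNA of whole testes from 8 mice, 2 in each of 4 groups, was sequenced directly on Nanopore chips. The authors deposited read counts per transcript, as whole numbers without normalization, and the tail length of each read in nucleotides. They basecalled with Guppy, aligned to GENCODE transcripts of GRCm38 with Minimap2 (2.20-r1061 per the labels), split barcodes with Deeplexicon, estimated tails with Nanopolish, and dropped transcripts that did not reach 10 reads in both mice of any group. Long RNA may be read in part only from its 3′ end, and a read shared by several transcripts of a gene is given to 1 of them. Tables of the authors' own comparisons between genotypes (log2 fold changes, p-values) were not used. The count of each transcript and library equalled its number of reads with a tail (0 differences), and all deposited columns were used.

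Counts were fitted with edgeR 4.0.16 (quasi-likelihood, TMM) in R 4.3.3, with 8 libraries as 4 groups. Mean tails and shares of long (120 to 210 nt) and short (30 to 120 nt) tails were fitted with limma 3.58.1 (eBayes, trend on log2 mean reads) where each library of a contrast had at least 10 reads, with libraries under 10 reads set as missing. Reads per tail pool were fitted with edgeR over pools with at least 10 reads. Tests were two-sided, with Benjamini-Hochberg adjustment over all transcripts or pools tested and a threshold of 0.05, and were tested on simulated data. With 2 mice a group, the tests pooled the spread between these mice with the spread shared by all transcripts. The p-values thus do not measure the spread between the mice of a transcript alone. For read counts the shared spread entered with 22.1 degrees of freedom, so that the p-values lean on it. Replicate numbers pair the samples, since the extraction protocol says that a number marks a shared sequencing run of 1 mouse per group. Deviations of groups over 339 transcripts correlated at -0.24 to 0.28 between groups. Alternatives were DESeq2 1.42.0, RLE scaling, the library totals, filters, gene sums, other windows, log scales, medians, centring, the methods' t-test, a replicate block and leaving out each library. Intervals are Wilson 95% intervals and cover counting error only, as does the limit of 3 reads that a count of 0 allows.

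The members and lists were chosen with earlier results of these data known. The text names all member transcripts, the 4 most read genes of each of 3 lists, the 5 transcripts with the highest correlation to the members' summed reads (mean of at least 50 CPM, prior count 1), and the nearest transcripts by tail distribution. Proteins were not analysed here.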

Additional observations from a re-analysis of the deposited data

Results flagged for a closer look

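The effect of busulfan on the leading transcripts of the 4 genes differed between genotypes by edgeR's test of the interaction, with a smaller loss in dcat than in wt testes. For read counts the interaction was 2.94 on the log2 scale for Prm1 (adjusted p = 0.0223), 2.82 for Tnp1 (adjusted p = 0.0270), 2.72 for Prm2 (adjusted p = 0.00108) and 2.93 for Tnp2 (adjusted p = 0.0223). The calls for Prm1, Tnp1 and Tnp2 ended without wt vehicle replicate 1 or 2, without wt busulfan replicate 1 (2.54, 2.29 and 2.33) and without dcat busulfan replicate 2 (1.51, 1.63 and 2.01), and those for Prm1 and Tnp1 also without dcat vehicle replicate 1. That of Prm2 held without any 1 library (2.26 to 2.94).

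The same test of reads per tail pool gave, for short tails, 2.66 for Prm1 (adjusted p = 0.000222), 2.74 for Tnp1 (adjusted p = 0.000398), 2.61 for Prm2 (adjusted p = 0.000205) and 3.0 for Tnp2 (adjusted p = 0.00019). For long tails it gave 3.42 for Prm1 (adjusted p = 6.53e-10), 3.18 for Tnp1 (adjusted p = 2e-07), 3.13 for Prm2 (adjusted p = 4.88e-08) and 3.31 for Tnp2 (adjusted p = 1.66e-07). These are the counts of the first test divided by tail length and are not independent of it.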

How the results depend on the processing

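The decreases of the 5 transcripts after busulfan were called by edgeR in both genotypes under every alternative. The dcat over wt difference of Prm2 reads after busulfan kept its call under every alternative, and those of Prm1, Tnp1 and Tnp2 depended on single libraries, as did most calls on tails. Leaving out both replicate 1 busulfan libraries, the robust spread and the minimum of 80 reads were alternatives chosen after seeing the data. Depth limits the tails most in wt busulfan replicate 1, with 15 to 149 reads of each leading transcript. The cause of the shifts between settings was not tested.

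Counts of all called transcripts moved by more than 1.5 times as follows, with the value of the main setting first. For read counts, busulfan in dcat testes gave 1746 calls, and 1095 by DESeq2 and 712 to 1795 without 1 library. The genotype after vehicle gave 0, and 1 in the fit of only 4 libraries and 0 to 1 without 1 library. The genotype after busulfan gave 162, and 77 by DESeq2 and 7 to 360 without 1 library. The interaction gave 9, and 68 with RLE scaling, 19 by DESeq2, 34 with filterByExpr, 91 with the study's library totals, 34 with gene sums, 124 without both replicate 1 busulfan libraries and 3 to 257 without 1 library.

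With the replicate block, which uses the shared sequencing run as a pairing, the interaction gave 123 calls on read counts, the genotype after busulfan gave 2 in place of 4 on the long share, and the long share of Prm2 in dcat testes was called. The block changed no other call on the members and moved no other count by over 1.5 times.

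For mean tails, busulfan in wt testes gave 190 calls, and 107 with at least 20 reads, 93 with libraries centred, 0 by the methods' t-test and 100 to 201 without 1 library. The dcat count was 134, and 77 with at least 20 reads, 74 with libraries centred, 0 by the t-test, 87 without both replicate 1 busulfan libraries and 51 to 136 without 1 library. The genotype after busulfan gave 14, and 24 on log2 lengths, 7 with no trend, 0 by the t-test and 3 without both. After vehicle it gave 0, and 0 to 1 without 1 library. The interaction gave 3, and 1 on median tails, 5 on log2 lengths, 8 with libraries centred, 0 with no trend, 15 without both and 1 to 3 without 1 library.

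For the long share, busulfan in wt testes gave 151 calls, and 23 without both replicate 1 busulfan libraries and 17 to 161 without 1 library. The dcat count was 74, and 14 without both and 2 to 106 without 1 library. The genotype after busulfan gave 4, and 1 on log2 odds, 9 with windows ending at 100 and 250 nt, 10 with at least 20 reads, 0 without both and 0 to 4 without 1 library. The interaction gave 1, and 0 on log2 odds, with at least 20 reads and without both, and 0 to 6 without 1 library. For the short share, busulfan in wt testes gave 151, and 89 with at least 20 reads, 66 without both and 60 to 164 without 1 library. The dcat count was 104, and 62 with at least 20 reads, 45 without both and 14 to 132 without 1 library. The genotype after busulfan gave 13, and 1 without both and 2 to 14 without 1 library, and the interaction gave 1, and 4 on log2 odds and 1 to 2 without 1 library.

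For reads per tail pool, busulfan in wt testes gave 2977 calls, and 1111 over pools of at least 80 reads. The dcat count was 2229, and 1004 over pools of at least 80 reads, 1175 without both replicate 1 busulfan libraries and 580 to 2226 without 1 library. The genotype gave 0 to 1 after vehicle and 25 to 379 after busulfan without 1 library (228 with all). The interaction gave 112, and 73 over pools of at least 80 reads and 7 to 277 without 1 library.

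Some values of the members also changed sign. With libraries centred, mean tails after busulfan came to 4.70 nt for Prm1, 12.7 nt for Tnp1 and 0.66 nt for Tnp2 in wt and to 21.0, 19.0 and 18.0 nt in dcat testes. Without 1 library, Tnp1 tails differed by -21.9 to 0.87 nt in wt and by -8.02 to 0.39 nt in dcat testes, and between genotypes after busulfan by -3.31 to 19.5 nt for Tnp1 and -10.7 to 24.6 nt for Prm2. The long share of Prm1 in dcat testes ranged from -1.41 to 0.97 points and its short share from -1.38 to 2.56 points. Between genotypes after busulfan the long share of Prm2 ranged from -11.8 to 19.6 points and its short share from -11.9 to 16.9 points, with -5.09 points without both replicate 1 busulfan libraries. Short-tailed Prm2 reads in dcat testes came to 0.30 on the log2 scale with windows ending at 100 and 250 nt. The genotype difference in read counts after vehicle ranged, without 1 library, from -0.28 to 0.12 for Prm1, -0.32 to 0.17 for Prm2, -0.10 to 0.23 for Tnp1 and -0.34 to 0.16 for Tnp2.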
